A study of Mus musculus with 14 samples.

Results

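The genes that encode the proteins of the mitochondrial ribosome were described in bulk RNA-seq of CT26 tumors. They were chosen by name, as every gene whose mouse symbol starts with Mrpl or Mrps followed by digits. The rule found 78 genes of the 53801 in the tables, 49 of the large subunit (Mrpl) and 29 of the small subunit (Mrps). A set of 5 pseudogenes with such symbols was left out. CT26 is a carcinoma line that arose in the colon of a Balb/c mouse. Cells carrying ClonTracer barcodes had been placed under the skin of both flanks of female Balb/c mice aged 6 to 8 weeks, with 250000 cells at each site. The series held 14 tumors from 11 mice. Of these, 5 tumors from 4 mice had been given control IgG, the remaining mice had been given an antibody against PD-1, and 5 of the anti-PD-1 tumors were responders and 4, from 3 mice, were non-responders. Antibody was injected from day 7 at 200 μg per mouse, every 3 days and 5 times in all, and the tumors were taken 3 days after the last injection. The authors called a tumor a responder or a non-responder from its final size relative to the control tumors, so tumor size and group cannot be told apart. Tumors are named by the mouse number and the flank (L or R), and 14L with 14R, 30L with 30R, and 33L with 33R shared a mouse.

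The mitochondrial ribosome makes the few proteins that are still encoded by mitochondrial DNA, all of them subunits of the respiratory chain and the ATP synthase. Its RNAs come from the mitochondrial genome, and its proteins are all encoded in the nucleus, made in the cytosol and imported. Many have a counterpart in the bacterial ribosome, others are found only in mitochondria, and cells that grow or respire strongly usually hold many of these ribosomes.

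Depth was 33237744 to 48481461 expected counts per tumor, and the 78 genes took 0.287% to 0.476% of them. All 78 were protein-coding in the annotation and passed the filter on low counts, and the lowest value of any member in any tumor was 275 expected counts. Tumor 33R, a non-responder, stood apart from the rest in how levels depended on gene length. Over the 16287 genes tested, its log2 CPM (the count scaled by normalized library size) fell by 0.305 for each doubling of gene length, relative to the mean over tumors. The same slope was -0.0971 in 14R, a control, and lay between -0.0422 and 0.0752 in the other tumors. The members were short, with a median length of 1059 bases against 2345 for all genes tested, and 72 of the 78 lay below that value. Counts of calls and medians between responders and non-responders in the reported edgeR fit are therefore given with and without it. The p-values measure the spread between these tumors, some of which shared a mouse.

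Per unit of length, the members spanned from 11.1 to 482 TPM (transcript abundance scaled by length, mean over the 14 tumors), with a median of 59.4 against 10.1 for all genes tested. The highest were Mrpl52 at 482 TPM, Mrpl33 at 311, Mrps21 at 229, Mrpl42 at 218 and Mrpl17 at 204. Mrpl52 and Mrpl42 encode proteins found only in mitochondrial ribosomes, and the other three have bacterial counterparts. Mrpl52 lay at 439.8 to 517 TPM in every tumor, and neither its responders (442 to 501) nor its non-responders (475 to 517) were apart from the controls (439.8 to 506). The lowest were Mrpl39 at 11.1 TPM, Mrpl19 at 12.0, Mrpl1 at 12.4, Mrpl47 at 13.2 and Mrpl45 at 15.7. The 5 shortest members (Mrpl52, Mrps21, Mrpl33, Mrpl54 and Mrpl34, 420.2 to 607 bases) included the 3 highest, and spanned 52.5 TPM for Mrpl34, below the median of the members, to 482. The 5 longest (Mrpl1, Mrps25, Mrpl11, Mrps30 and Mrpl19, 2515 to 3737 bases) lay at 12.0 to 34.5 TPM. TPM divides by an effective length, which is much smaller than the gene for the shortest transcripts, and the part of that correction in this order was not tested.

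**Figure D1:**
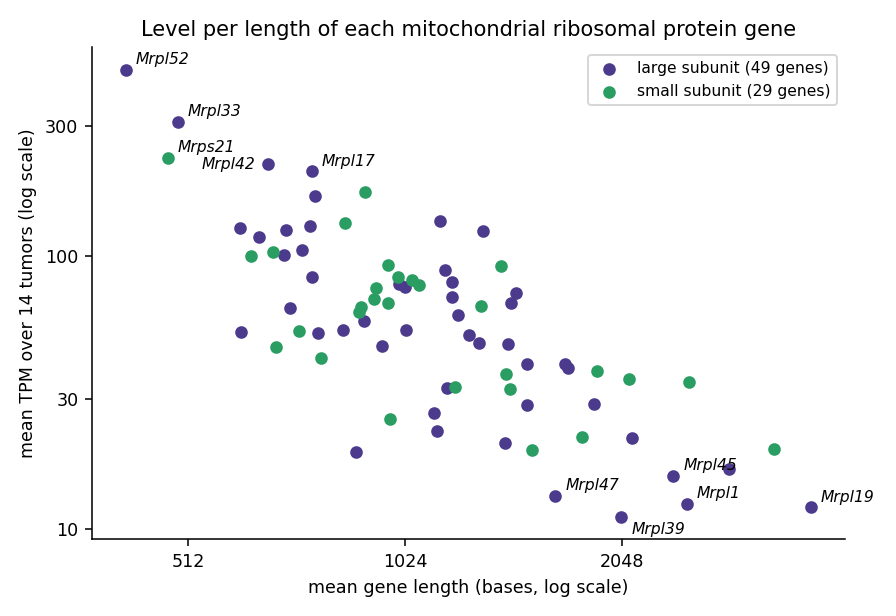
Mean TPM over the 14 tumors (vertical, log scale) of each of the 78 genes against its mean length in bases (horizontal, log scale), with large subunit genes in purple and small subunit genes in green. The short Mrpl52, Mrpl33 and Mrps21 lie at the top at 229 to 482 TPM and the long Mrpl19 lies at 12.0 TPM.

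The proportion of large to small subunit genes varied little between tumors. The summed TPM of the 49 large subunit genes was 1.90 to 2.04 times that of the 29 small subunit genes in the 14 tumors. The ratio was 1.95 ± 0.0339 in control tumors (n = 5, SD), 1.96 ± 0.0445 in responders (n = 5, SD) and 1.99 ± 0.0356 in non-responders (n = 4, SD), so the groups overlapped. On the CPM scale, which is not per length, the mean log2 CPM of the large subunit genes minus that of the small ones was -0.0644 to 0.0254, with 30R lowest and 33R highest and the only tumor above 0. The symbols are not a perfect guide to place. The proteins of Mrps30 and Mrps18a sit in the large subunit of the mammalian particle, and with both moved there the difference was -0.0694 to 0.0289.

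The mean summed level of all members was lowest in responders, with groups that overlapped. Summed CPM was 2779, 2930, 3111, 3156 and 3245 in the responders 24L, 30R, 35L, 30L and 26R. In the control tumors it was 3141, 3155, 3289, 3546 and 4036, with 14R highest. In the non-responders it was 3153 in 33L, 3321 in 29L, 3706 in 32R and 5186 in 33R. The upper responders overlapped the lower tumors of both other groups. The mean was 3044 ± 187 in responders (n = 5, SD), 3433 ± 374 in controls (n = 5, SD) and 3842 ± 925 in non-responders (n = 4, SD). Without 14R the controls had 3283 ± 188 (n = 4, SD), and without 33R the non-responders had 3394 ± 283 (n = 3, SD). The mean over members of log2 CPM was 5.11 ± 0.0874 in responders (n = 5, SD), 5.28 ± 0.148 in controls (n = 5, SD) and 5.42 ± 0.311 in non-responders (n = 4, SD), and the last fell to 5.27 without 33R. With the length trend of each tumor removed these means were 5.18, 5.28 and 5.35. On the TPM scale the summed level was 5365 to 6019 in responders, 5506 to 6510 in controls and 5688 to 7003 in non-responders. Its mean was 5792 in responders, 5946 in controls and 6166 in non-responders, or 5887 without 33R. Of the 78 members, 73 were highest of all tumors in 33R and 44 were lowest in the responder 24L. The same counts were not made for all genes, and 33R also stood apart in its length slope over all genes tested.

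**Figure D2:**
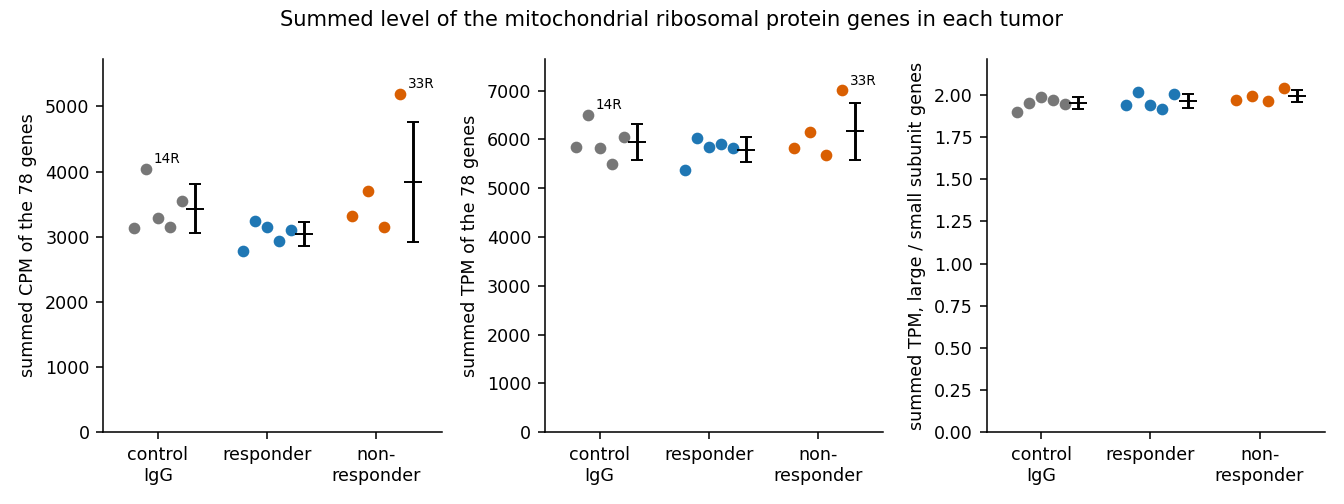
Summed CPM, summed TPM, and the ratio of summed TPM of large to small subunit genes (vertical axes, from 0) for each tumor, by group, where each point is a tumor and the black bars are the mean and SD. Tumor 33R lies highest in the left and middle panels, at 5186 CPM and 7003 TPM, and the ratio stays between 1.90 and 2.04 in every tumor.

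**Figure D3:**
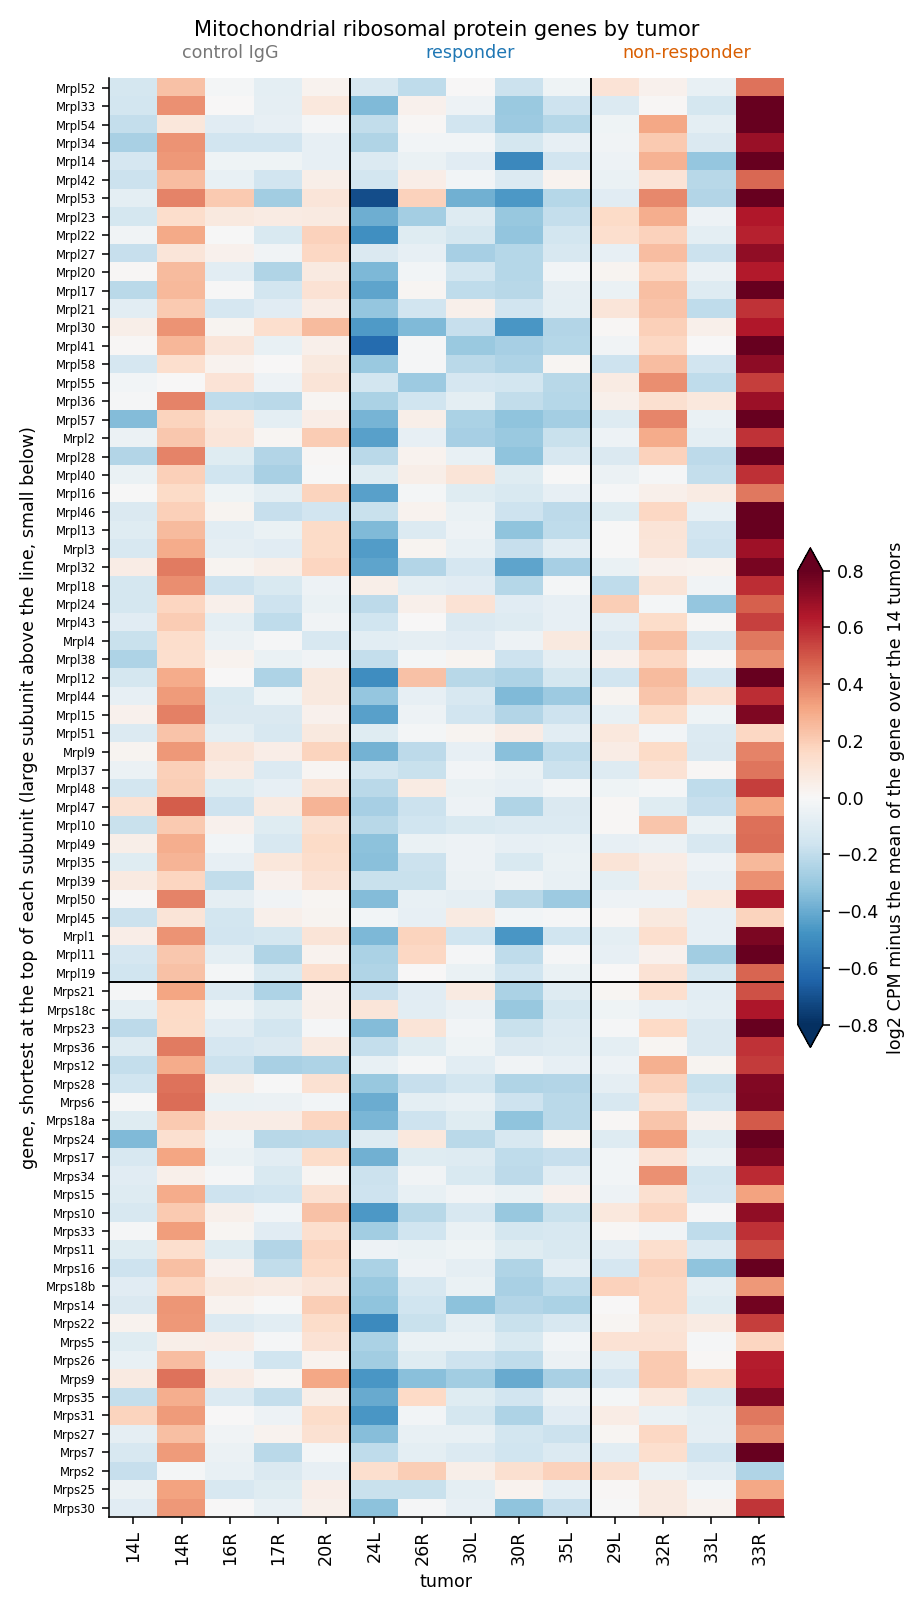
Log2 CPM of each of the 78 genes (rows) minus its mean over the 14 tumors (columns, by group), from blue (lower) to red (higher), with genes ordered by length within each subunit. The column of 33R is red for nearly every gene, 24L is mostly blue, and Mrps2 is a row that is higher in responders.

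Responders were compared with non-responders to ask which members went with the response to anti-PD-1. In edgeR's quasi-likelihood test with Benjamini-Hochberg adjustment over all 16287 genes, 13 of the 78 members passed and all 13 were lower in responders. They were Mrpl2, Mrpl9, Mrpl22, Mrpl23, Mrpl30, Mrpl32, Mrpl41 and Mrpl44 of the large subunit and Mrps9, Mrps10, Mrps14, Mrps18a and Mrps18b of the small. Of all genes tested 9.9% passed, 4.82% as lower and 5.08% as higher. The log2 fold change was below 0 for 77 of the 78 members, with a median of -0.36 against 0.0062 for all genes. For 18 members every responder lay below every non-responder, which held for 6.04% of all genes. The count of members that passed rested on single tumors. Without 33R it was 3 (Mrpl23, Mrpl30 and Mrps9), against 1.74% of all genes lower. The median was then -0.14, and 70 members were below 0. The count was also 3 without 24L, 30R or 32R, where 1.41%, 1.67% and 1.61% of all genes passed as lower. It was 7 without 35L (3.15%) and 8 without 16R (3.73%), 17R (3.21%), 20R (3.95%) or 30L (3.49%). It was 9 without 14L (4.1%), 10 without 26R (3.9%) and 13 without 14R (4.46%). It was 22 without 29L, among them Mrps2 as higher (6.38% of all genes lower), and 24 without 33L (5.60%).

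Mrpl30 and Mrps9 were the members that stayed past the threshold with any tumor left out and under each of the 12 other settings tried. Mrpl30 (ENSMUSG00000026087, mm10 chr1:37890477-37898535, plus strand) encodes a large subunit protein that has a bacterial counterpart. Its CPM was 50.4, 50.8, 54.5, 59.0 and 61.3 in the responders, and 70.0, 71.5, 79.3 and 108 in the non-responders. No responder reached the lowest non-responder, and 33R held the highest value. Its log2 fold change was -0.58 (SE 0.123, adjusted p = 0.0145 in edgeR) with all tumors and -0.40 (adjusted p = 0.0311 in edgeR) without 33R. Mrps9 (ENSMUSG00000060679, chr1:42851233-42905683, plus strand) encodes a small subunit protein that also has a bacterial counterpart. Its CPM was 25.9, 27.0, 28.2, 29.4 and 29.8 in the responders and 32.5, 39.5, 41.3 and 55.2 in the non-responders. The groups were apart here too, with 29L the nearest non-responder. The log2 fold change was -0.59 (SE 0.130, adjusted p = 0.0170 in edgeR), and -0.41 (adjusted p = 0.0434 in edgeR) without 33R.

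The RefSeq sequence directly before the start (GRCm38.p6, the assembly behind mm10) is shown for Mrpl30 and Mrps9, and for 4 other members that passed. Mrpl30 and Mrps9 held none of the motifs searched in the 250 bases before the start, and the 4 others show where such motifs lay. Each line is 120 bases, 5′ to 3′ on the gene's strand, and ends at the base before the RefSeq start. Capitals mark any of GCATGCGC (the site of NRF1, a regulator of nuclear genes for mitochondria), CCGGAAG (ETS family, among them GABPA), AAGATGGC (YY1) and CACGTG (the E-box read by MYC), searched on both strands, where NRF1 sites can overlap their own reverse complement.
Mrpl30 (chr1:37890357-37890476, plus strand): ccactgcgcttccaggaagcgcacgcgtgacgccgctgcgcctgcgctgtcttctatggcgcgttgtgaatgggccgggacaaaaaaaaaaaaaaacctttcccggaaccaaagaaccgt
Mrps9 (chr1:42851113-42851232, plus strand): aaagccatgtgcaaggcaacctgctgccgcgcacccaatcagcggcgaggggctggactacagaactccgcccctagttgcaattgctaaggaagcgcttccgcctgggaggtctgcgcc
Mrpl9 (chr3:94443216-94443335, plus strand): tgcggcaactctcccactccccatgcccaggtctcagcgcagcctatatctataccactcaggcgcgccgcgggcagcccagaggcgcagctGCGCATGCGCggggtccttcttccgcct
Mrpl32 (chr13:14613038-14613157, minus strand): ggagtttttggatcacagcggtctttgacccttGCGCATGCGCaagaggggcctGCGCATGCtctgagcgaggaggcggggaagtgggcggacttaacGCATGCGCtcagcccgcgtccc
Mrpl22 (chr11:58171544-58171663, plus strand): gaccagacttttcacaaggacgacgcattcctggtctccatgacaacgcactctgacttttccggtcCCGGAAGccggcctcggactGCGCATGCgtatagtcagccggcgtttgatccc
Mrps18a (chr17:46110884-46111003, plus strand): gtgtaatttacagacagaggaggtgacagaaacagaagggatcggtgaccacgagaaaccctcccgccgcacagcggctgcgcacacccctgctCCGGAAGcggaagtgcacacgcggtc
The lines show an NRF1 match in Mrpl9, several in Mrpl32, an NRF1 and an ETS match in Mrpl22, and an ETS match in Mrps18a. A promoter window of 250 bases before to 50 after the start was given for 69 of the 78 members. In it, the ETS letters were in 37.7% of members against 18.3% of the tested genes with a window and 9.93% of all genes with one. The NRF1 letters were in 11.6% against 5.38% and 3.05%, and the YY1 letters in 17.4% against 4.78% and 3.19%. The E-box was in 7.25% against 11.3% and 8.09%. The median log2 fold change of responders against non-responders was -0.37 for the 8 members with the NRF1 letters and -0.35 for the rest, -0.34 for the 26 with the ETS letters and -0.37 for the rest, -0.28 for the 12 with the YY1 letters and -0.36 for the rest, and -0.37 for the 5 with an E-box and -0.36 for the rest. Without 33R these pairs were -0.22 and -0.12, -0.12 and -0.15, -0.12 and -0.15, and -0.18 and -0.13.

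Other large subunit genes that passed did not stay past the threshold in every setting tried. Mrpl23 (ENSMUSG00000037772, chr7:142532686-142540747, plus strand), whose bacterial counterpart sits at the exit of the peptide tunnel, was at 34.5, 36.6, 37.4, 39.6 and 42.2 CPM in responders. Its non-responders were at 43.9, 50.2, 55.4 and 70.5 CPM, so the groups did not overlap. Its log2 fold change was -0.53 (SE 0.114, adjusted p = 0.0150 in edgeR), and -0.37 (adjusted p = 0.0338 in edgeR) without 33R. Mrpl44 (chr1:79776018-79781445, plus strand), a mitochondria-specific protein with a ribonuclease III-like fold, was at 15.6 to 19.1 CPM in responders with a median of 16.3, and at 20.3, 21.8, 23.4 and 30.1 in non-responders. Its log2 fold change was -0.48 (SE 0.123, adjusted p = 0.0271 in edgeR), and its adjusted p was 0.0890 without 33R. Mrpl2 (chr17:46646229-46650139, plus strand), whose bacterial counterpart lies near the peptidyl transferase center, was at 36.4 to 47.0 CPM in responders and 46.5, 47.7, 60.4 and 73.3 in non-responders. The groups overlapped at the responder 26R, and the log2 fold change was -0.46 (SE 0.124, adjusted p = 0.0345 in edgeR). Mrpl9 (chr3:94443318-94451130, plus strand) was at 56.9 to 70.8 CPM in responders and 68.1, 77.2, 82.1 and 97.4 in non-responders. It had a log2 fold change of -0.37 (SE 0.104, adjusted p = 0.0390 in edgeR). Mrpl22 (chr11:58171661-58179565, plus strand), whose bacterial counterpart lines the tunnel, was at 17.1 to 22.4 CPM in responders and 22.8, 26.3, 27.2 and 36.7 in non-responders. In log2, the fold change was -0.47 (SE 0.133, adjusted p = 0.0406 in edgeR).

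Mrpl32, Mrpl41 and, of the small subunit, Mrps14 also passed. Mrpl32 was at 18.7 to 22.8 CPM in responders and at 24.2, 25.6, 25.7 and 42.4 in non-responders, and Mrps14 at 42.3 to 47.5 against 49.5, 53.1, 59.3 and 90.3, both with no overlap. Mrpl41 was at 14.5 to 22.1 CPM against 21.8, 22.2, 24.9 and 41.6, with the responder 26R above 29L. Mrpl53, named after its values were seen, had the fold change farthest from 0, at -0.71 (SE 0.256, adjusted p = 0.0875 in edgeR), and did not pass. It was at 80.8 CPM in 33R and at 30.0 to 46.1 in the other non-responders. Mrpl2, Mrpl9 and Mrpl22 did not pass without 33R, with adjusted p of 0.108, 0.127 and 0.144 in edgeR.

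Of the small subunit symbols, Mrps10 (chr17:47368887-47381417, plus strand) was at 28.9, 32.3, 34.2, 35.1 and 36.4 CPM in responders and at 39.5, 42.2, 44.8 and 65.1 in non-responders. The groups did not overlap, and the log2 fold change was -0.52 (SE 0.132, adjusted p = 0.0269 in edgeR). Mrps18a, Mrps18b and Mrps18c are paralogs of a bacterial small subunit protein, and each of their proteins has its own place in the particle. Mrps18a (chr17:46110986-46128910, plus strand) was at 25.3 to 30.5 CPM in responders with a median of 28.1 and at 32.8, 33.3, 37.9 and 45.8 in non-responders, with no overlap. Its log2 fold change was -0.43 (SE 0.102, adjusted p = 0.0214 in edgeR). Mrps18b (chr17:35910379-35916389, minus strand) was at 44.1 to 52.4 CPM in responders and 51.4, 60.8, 61.7 and 68.9 in non-responders. The groups met at 30L and 33L, and its log2 fold change was -0.35 (SE 0.0870, adjusted p = 0.0254 in edgeR). Mrps18c (chr5:100798627-100804471, plus strand) was at 24.4 to 32.2 CPM in responders and at 28.6, 29.0, 29.4 and 47.3 in non-responders. Only 33R lay above the responders, and its log2 fold change of -0.24 did not pass (adjusted p = 0.265 in edgeR) and turned to 0.021 with the length trend removed. Without 33R, none of Mrps10, Mrps18a, Mrps18b and Mrps18c passed, with adjusted p of 0.0682, 0.0581, 0.0755 and 0.926 in edgeR.

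Mrps2 (ENSMUSG00000035772, chr2:28468066-28471178, plus strand), which encodes a small subunit protein with a bacterial counterpart, was the member with a fold change above 0. Its CPM was 56.5, 59.8, 59.9, 62.1 and 62.5 in responders and 46.2, 51.5, 52.6 and 59.6 in non-responders. The non-responder 29L lay among the responders, and 33R, which was highest for most members, was the lowest tumor here. The log2 fold change of 0.20 did not pass (SE 0.0739, adjusted p = 0.101 in edgeR). Of the other settings and omissions it passed on the log2(TPM + 1) scale in limma, at 0.44 (adjusted p = 0.0282), and on log2(TPM + 0.1), at 0.45 (adjusted p = 0.0294). It also passed in limma-voom with mouse as a random effect (adjusted p = 0.0480) and in edgeR without 29L (adjusted p = 0.0330).

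**Figure D4:**
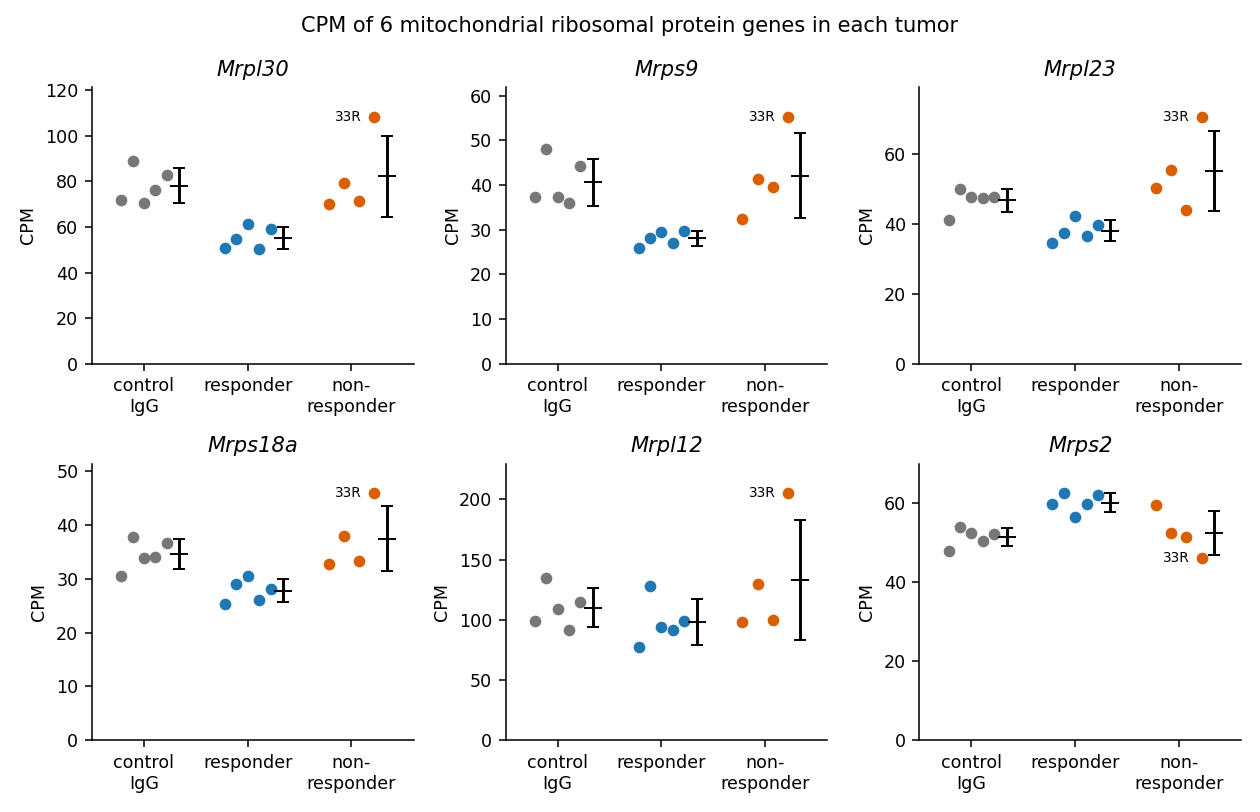
CPM (vertical, from 0) of Mrpl30, Mrps9, Mrpl23, Mrps18a, Mrpl12 and Mrps2 in each tumor, by group, where each point is a tumor and the black bars are the mean and SD. Responders lie below both other groups for Mrpl30, Mrps9 and Mrps18a and above the controls for Mrps2, and 33R is the highest tumor except for Mrps2.

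A few members are known for roles or positions outside the usual scheme. Mrpl12, of the stalk that receives translation factors, also binds the mitochondrial RNA polymerase. Its CPM was 77.3, 91.9, 93.6, 99.1 and 128 in responders and 98.1, 99.6, 130.0 and 205 in non-responders. The groups overlapped, and its log2 fold change of -0.44 did not pass (SE 0.203, adjusted p = 0.172 in edgeR). Mrps30, a large subunit protein by structure, was at 41.0 to 51.1 CPM in responders and 51.3, 52.3, 54.0 and 76.4 in non-responders. The groups were apart, with 26R just below 29L, and its log2 fold change was -0.36 (SE 0.127, adjusted p = 0.0806 in edgeR). Mrps36, whose protein was later found in the 2-oxoglutarate dehydrogenase complex and not in the ribosome, was at 14.0 to 15.6 CPM in responders. It was at 14.8, 15.1, 16.1 and 23.8 in non-responders, of which only 32R and 33R exceeded the responders. In log2, its fold change was -0.24 (adjusted p = 0.307 in edgeR), which turned to 0.012 with the length trend removed.

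The share of members that passed was alike in the subunits, at 8 of 49 large subunit and 5 of 29 small subunit genes, all lower. Of all genes tested, 4.82% passed as lower, and 1.74% did without 33R. The median log2 fold change was -0.36 for the large and -0.35 for the small subunit genes, and -0.15 and -0.13 without 33R, when 2 and 1 of them passed. Of the 47 members with a bacterial counterpart 11 passed, with a median of -0.37, and of the 31 mitochondria-specific members 2 passed (Mrpl41 and Mrpl44), with a median of -0.28. Without 33R, 3 of the 47 and none of the 31 passed, with medians of -0.16 and -0.11. Whether these shares differ was not tested.

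Length went with the size of the fold change. In members of 420.2 to 889 bases the median was -0.38, in those of 897 to 1306 bases -0.35 and in those of 1314 to 3737 bases -0.29, with 5, 5 and 3 of 26 members called, all lower. Over all genes tested, the same length ranges had medians of -0.26, -0.16 and 0.042, and 10.7%, 7.30% and 3.81% passed as lower. Without 33R the members' medians were -0.16, -0.14 and -0.12 with 2, 0 and 1 called, and those of all genes were -0.098, -0.033 and 0.022 with 2.38%, 1.64% and 1.71% lower. Genes as short as the short members (1511 genes) were lower in responders in 1131 cases, and those in the range of the middle members (1768 genes) in 1191. With the length trend of each tumor removed before the fit, the members' median was -0.19 against -0.0044 for all genes. In that fit 69 of the 78 were below 0 and 12 passed, of which 10 were among the 13, and 6.24% of all genes passed as lower. On the log2(TPM + 1) scale in limma the members' median was -0.077 against 0.17 for all genes, a difference of -0.25. Mrpl23, Mrpl30 and Mrps9 passed there as lower and Mrps2 as higher, against 1.17% of all genes as lower. With 33R left out and the length trend removed, 59 members were below 0 and the median was -0.094. Mrpl30, Mrpl44 and Mrps9 passed in that fit as lower, against 2.64% of all genes as lower.

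**Figure D5:**
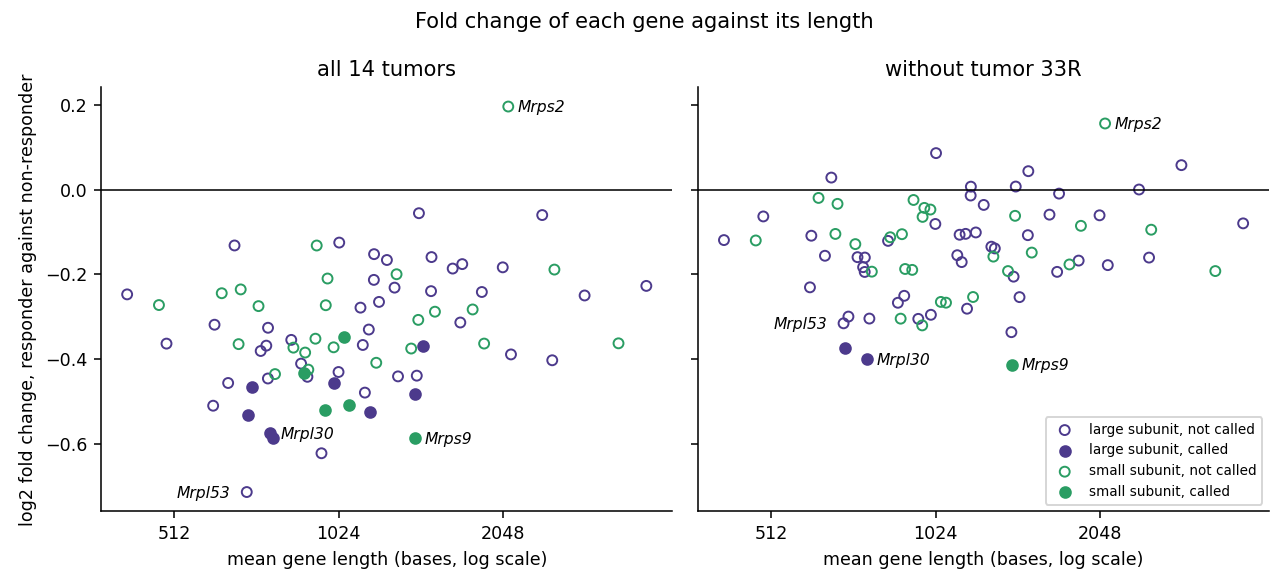
Log2 fold change of responders against non-responders in edgeR (vertical) against mean gene length (horizontal, log scale), for each of the 78 genes, with all 14 tumors (left) and without 33R (right); filled points passed the adjusted p threshold. With all tumors 77 genes lie below 0 and 13 are filled, and without 33R 70 lie below 0 and 3 are filled.

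A few members changed in estimated length between tumors, as RSEM weights each gene's length by its isoforms, and this enters TPM but not CPM. The length of Mrpl19 was 2941 bases in 33L and 4243 in 29L, Mrps25 was 2125 in 33R and 3042 in 35L, and Mrpl47 was 1507 in 26R and 2013 in 29L. Mrps35 was 1267 bases in 35L and 1634 in 16R, and Mrpl38 was 1037 in 30R and 1366 in 20R. The extremes fell in tumors of every group. Exons of 33 of the 78 members overlapped those of another gene in the annotation, such as Mrpl44 with Wdfy1, Mrpl9 with Oaz3 and Mrps18b with Gm16279, and Mrpl46 with Mrps11, on opposite strands, and Mrps24 with Urgcp on the same strand. Whether the library kept strand is not given in the sources used here, so counts of such members are uncertain. The 5 pseudogenes were at most at 198 expected counts in any tumor, for Mrpl48-ps, then 109.8 for Mrpl23-ps1.

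Responders were compared with the control IgG tumors to ask which members went with a treated tumor that responded. In edgeR 5 of the 78 members passed, 4 lower (Mrps9, Mrpl30, Mrpl9 and Mrps18a) and Mrps2 higher, whereas 13.2% of all genes passed, 5.3% as lower and 7.88% as higher. The median log2 fold change of the members was -0.17 against -0.011 for all genes, and 72 of the 78 were below 0. For 10 members every responder lay below every control tumor, which held for 6.72% of all genes. Mrpl30 was at 70.6, 71.8, 76.4, 82.8 and 89.1 CPM in the control tumors, all above the highest responder at 61.3. The fold change was -0.50 in log2 (SE 0.116, adjusted p = 0.0123 in edgeR). Mrps9 was at 36.0, 37.2, 37.4, 44.2 and 48.2 CPM in the control tumors, above the highest responder at 29.8, with a log2 fold change of -0.53 (SE 0.124, adjusted p = 0.0122 in edgeR). Both passed with any tumor left out and in each of the 12 other settings tried. Mrpl9 was at 75.1 to 94.1 CPM in the controls, also apart from the responders, with a log2 fold change of -0.38 (SE 0.0983, adjusted p = 0.0212 in edgeR). Mrps18a was at 30.5, 33.9, 33.9, 36.6 and 37.7 CPM in the controls, of which 14L lay just above 30L, and its log2 fold change was -0.31 (SE 0.0968, adjusted p = 0.0453 in edgeR). Mrps2 was at 48.1, 50.4, 52.2, 52.5 and 54.1 CPM in the controls, all below the lowest responder at 56.5, with a log2 fold change of 0.23 (SE 0.0695, adjusted p = 0.0453 in edgeR). Mrpl9 did not pass without 14R, 20R, 24L or 30R (adjusted p = 0.0505 to 0.0631 in edgeR). Mrps18a did not pass in 9 of the 14 omissions (adjusted p up to 0.119 in edgeR), and Mrps2 did not in 9 (up to 0.0981).

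That count also depended on single tumors. Without 33R, which is in neither group and enters only through the shared fit, 16 members passed, 15 lower and Mrps2 higher, against 9.31% of all genes as lower. It was 2 without 20R (2.71% of all genes lower), 24L (2.75%) or 30R (3.07%), and 3 without 14R (4.13%), 17R (3.53%), 26R (4.19%), 32R (4.58%) or 35L (4.31%). The 3 without 14R held Mrps2 as higher, and the other members in these counts were lower. The median was -0.11 without 14R. Mrpl30, Mrpl9, Mrps9 and Mrps18a passed against both the non-responders and the controls, and both comparisons share the responders.

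Non-responders were compared with the control IgG tumors to ask whether members differed in tumors that had been treated and had not responded. In edgeR 0% of all genes and none of the members passed. With DESeq2 none of the members passed, and 0.11% of all genes did. The members with the smallest p were Mrps24, Mrps12, whose counterpart lies at the decoding center, and Mrpl54. Mrps24 was at 31.8, 31.8, 42.8 and 64.0 CPM in non-responders and 26.8 to 37.4 in controls, with a log2 fold change of 0.45 (SE 0.175, adjusted p = 0.931 in edgeR). Mrps12 was at 20.2, 21.1, 25.3 and 30.6 CPM in non-responders and 17.4 to 25.5 in controls, and Mrpl54 was at 33.7, 34.7, 44.2 and 67.8 against 31.1 to 38.0. The groups overlapped for all 78 members, and the share of all genes without overlap was not counted for this comparison. The members' median log2 fold change was 0.15 with 74 above 0, and it was -0.034 without 33R. These values were not set beside those of all genes.

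The tumors of each mouse with both flanks sequenced showed how far members differed within a host. In the control mouse 14 all 78 members were higher in 14R than in 14L, with a median difference of 0.35 in log2 CPM against 0.0028 for all genes. In the non-responder mouse 33, 77 members were higher in 33R than in 33L, with a median of 0.69 against -0.032 for all genes. In the responder mouse 30, 12 members were higher in the right tumor and the median was -0.096. With the length trend removed these medians were 0.22, 0.30 and -0.14, and on the log2(TPM + 1) scale 0.12, 0.23 and 0.030. The difference within mice 14 and 33 was larger than the size of the median between responders and controls (-0.17, -0.11 and -0.037) on each of these scales, and the tumors of a pair had the same treatment. Beside the median between responders and non-responders, the difference in mouse 33 was larger on each scale. In mouse 14 it was larger except on log2 CPM without the trend removed, and in mouse 30 it was smaller on each.

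The rest of the machinery of mitochondrial translation was read from fixed lists. Mitoribosomal proteins that carry other symbols (Dap3, Ptcd3, Chchd1, Aurkaip1 and Gadd45gip1) were all below 0 in responders against non-responders, with a median of -0.40, and 1 of 5 passed. That was Gadd45gip1, with 37.7 ± 2.79 CPM in responders (n = 5, SD) and 51.6 ± 11.8 in non-responders (n = 4, SD), with a log2 fold change of -0.45 (adjusted p = 0.0349 in edgeR). Dap3, a small subunit protein with a GTPase fold, passed only against controls, at -0.29 (adjusted p = 0.0426 in edgeR). Of 23 assembly factors 3 passed as lower against non-responders, with a median of -0.17. They were Fastkd2, an RNA-binding factor of the large subunit, at -0.68 (adjusted p = 0.0284 in edgeR), Malsu1, which keeps the subunits apart during assembly, at -0.58 (adjusted p = 0.0378), and the GTPase Mtg1 at -0.31 (adjusted p = 0.0407). Without 33R none of these 4 genes passed, with log2 fold changes of -0.27 for Gadd45gip1, -0.41 for Fastkd2, -0.32 for Malsu1 and -0.28 for Mtg1 (adjusted p = 0.0940, 0.0757, 0.102 and 0.0975 in edgeR). The medians were then -0.18 for the proteins under other symbols and -0.086 for the assembly factors.

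Of 13 mitochondrial translation factors none passed against non-responders (median -0.20, or -0.091 without 33R), and the elongation factor Gfm1 passed against controls at -0.33 (adjusted p = 0.0302 in edgeR). Of 17 mitochondrial aminoacyl-tRNA synthetases, Mars2, which charges the methionine tRNA, passed against both groups. Its CPM was 12.7 ± 1.34 in responders (n = 5, SD), 20.4 ± 3.27 in non-responders (n = 4, SD) and 16.8 ± 1.03 in controls (n = 5, SD), with log2 fold changes of -0.68 and -0.40 (adjusted p = 0.00629 and 0.0228 in edgeR). Without 33R it passed against non-responders at -0.59 (adjusted p = 0.0178). The median of the synthetases was -0.16 against non-responders and -0.13 without 33R. Of 10 genes of mitochondrial transcription and mRNA handling, Tfb2m, a partner of the mitochondrial RNA polymerase, passed against non-responders at -0.30 (adjusted p = 0.0302 in edgeR), but not without 33R (-0.28, adjusted p = 0.0624). None of the 13 mitochondrially encoded protein genes passed in any comparison, and their median was -0.14 against non-responders, -0.24 without 33R, and 0.17 against controls.

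Of 9 nuclear regulators of mitochondrial biogenesis, Ppargc1a, a coactivator, was lower in responders in both comparisons, at -1.22 and -1.54 (adjusted p = 0.0290 and 0.00469 in edgeR). Against non-responders it did not pass without 33R (-0.93, adjusted p = 0.0973 in edgeR). It was near the bottom of the range, at 0.258 ± 0.0656 CPM in responders (n = 5, SD), 0.607 ± 0.270 in non-responders (n = 4, SD) and 0.756 ± 0.134 in controls (n = 5, SD). Myc had 116 ± 20.5 CPM in responders (n = 5, SD) and 177 ± 16.8 in controls (n = 5, SD), a log2 fold change of -0.61 (adjusted p = 0.00563 in edgeR), and it did not pass against non-responders (-0.26, adjusted p = 0.202).

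Markers of other cells moved with the groups, and their part in the members' values was not tested. In these bulk tumors, fewer cells of a type and less RNA per cell cannot be told apart. Of 8 T cell genes, 7 were higher in responders than in non-responders and 8 than in controls, with summed CPM of 40.2 to 80.0 in responders, 22.6 to 28.0 in non-responders and 17.2 to 41.0 in controls. B and plasma cell genes summed to 9.88 to 22.9, 3.73 to 7.18 and 2.70 to 5.36 CPM in the same order, with 2 and 4 of 6 tested genes higher. Macrophage genes summed to 1792 to 2209, 1452 to 1806 and 1578 to 1818 CPM, with 1 of 8 higher in each comparison. Erythroid genes summed to 59.3 to 283 CPM in responders, 376 to 2067 in non-responders and 71.4 to 1910 in controls, with 5 and 3 of 5 tested genes lower. Fibroblast genes summed to 2858 to 4773, 2322 to 4292 and 2414 to 3102 CPM, with 1 of 8 higher against non-responders and 2 higher and 1 lower against controls. Endothelial genes summed to 203 to 257, 146 to 215 and 135 to 207 CPM, with 0 and 1 of 6 higher. Proliferation genes summed to 2003 to 2163 CPM in responders, 1774 to 2158 in non-responders and 1995 to 2378 in controls, and none of 10 passed. Epidermis and skeletal muscle genes ranged from 7.09 to 977 and from 26.8 to 1338 CPM over the tumors, and none passed. In 33R and 14R, the tumors highest in the members, skeletal muscle genes summed to 788 and 1338 CPM, above the other tumors, which reached 450.5. Without 33R, 5 of 8 T cell genes, 1 of 7 B and plasma cell genes and 1 of 8 macrophage genes were higher and 1 of 5 erythroid genes was lower against non-responders, and no fibroblast or endothelial gene passed. Colon epithelium genes summed to 313 to 448 CPM in responders, 234 to 510.3 in non-responders and 249 to 362 in controls, and no list had a gene at 0 in every tumor of a group. Most of this sum was Krt20, with means of 381, 328 and 276 CPM, whereas Epcam was at 2.58, 2.44 and 3.66 CPM. Cdx2, the only one of 6 tested that passed, lower against controls, was at 0.148 ± 0.185 CPM in responders (n = 5, SD) and 0.570 ± 0.0970 in controls (n = 5, SD).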

How the data were processed

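RNA was measured by poly(A)-selected, paired-end RNA-seq in 14 tumors. Per the labels and the methods of the study, the authors used STAR (alignment to mm10) and RSEM (quantification of genes), both with default settings. STAR was version 2.5 in the methods given for its cell lines. The RSEM version and the annotation release are not given in the sources used here. The deposited values are RSEM expected counts, TPM and FPKM for each gene and tumor, and FPKM was not used. Symbols, positions and exon overlaps came from the GENCODE annotation of GRCm38 by gene ID, and promoter sequences from RefSeq.

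Expected counts were rounded to whole numbers. Genes were filtered with filterByExpr (minimum count 10), leaving 16287 of 53801, normalized by TMM and fitted over the 3 groups with the quasi-likelihood test of edgeR 4.0.16 (R 4.3.3). Log2 fold changes are edgeR's, with Benjamini-Hochberg adjustment over all genes tested and a threshold of 0.05. Log2 CPM used a prior count of 2. TPM was tested with limma 3.58.1 after adding 1. The length trend was a loess curve (span 0.5) of each tumor's log2 CPM, minus the mean over tumors, on log2 gene length. Other settings were DESeq2 1.42.0, limma-voom, the same with a random effect for mouse, 1 library per mouse, DESeq2 size factors, upper quartile scaling, no filter, a TPM pseudocount of 0.1, the compared groups alone, each tumor left out, and 33R left out with the length trend removed (chosen after seeing the data). Methods were tested on simulated data. With 200 genes changed, edgeR recovered 72% of the 2-fold changes between responders and non-responders and more of the larger ones. Of its calls there, 5.36% were false. These counts were drawn independently for each tumor, with no shared mice and no length slope like that of 33R. Changes under 2-fold, such as those of the members, were not simulated.

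The members and the lists were chosen with earlier results of these data known. Genes named were, in each comparison, up to 10 members with the smallest p among those that passed, or the 3 smallest where none did, the 5 highest and lowest by TPM, the 5 shortest and longest, the 5 with the most variable length, those moving against the median, and Mrps30, Mrps18a, Mrps18b, Mrps18c, Mrps36 and Mrpl12 for known roles. Mrpl32, Mrpl41, Mrps14 and Mrpl53 were named after their values were seen, and from other lists up to 4 called genes were named. Ict1 was not matched.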

Additional observations from a re-analysis of the deposited data

Results flagged for a closer look

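A tumor stood far from the rest of its group, by Dixon's criterion (a gap over the range above 0.71 for 5 tumors and 0.829 for 4), in 6 of 78 values tested for the named genes. Chance alone gives such a result in about 1 of 20 groups. Among the non-responders it was 33R for Mrps30 at 76.4 CPM, for Mrps18c at 47.3 CPM and for Mrps36 at 23.8 CPM. Among the control tumors it was 14R for Mrps30 at 65.4 CPM and for Mrps12 at 25.5 CPM, and 14L for Mrpl23, which was low at 41.0 CPM. Over all 78 members in the 3 groups 27 of 234 values stood apart in this way, 12 of them in 33R and 8 in 14R.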

How the results depend on the processing

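The 13 members that passed between responders and non-responders became 24 with DESeq2, 31 in limma-voom with mouse as a random effect, 27 with 1 library per mouse, 6 without a filter on low counts, 4 on log2(TPM + 1) and on log2(TPM + 0.1), 2 with these groups alone and 3 with 33R left out and the length trend removed. Of all genes, 9.9% passed in the reported fit and 16.2%, 18.2%, 10.7%, 4.05%, 13.3%, 12.9%, 4.34% and 6.29% in these. The estimated correlation of tumors within a mouse was -0.282, so the random effect treated tumors of a mouse as less alike than those of different mice. Leaving out a tumor gave 3 to 24 members, and 3.52% to 12.0% of all genes. The 5 members against controls became 10, 11, 13, 3, 2, 2, 13 and 13 in the same order (all genes 13.2% as reported, then 18.5%, 18.3%, 17.3%, 6.03%, 11.2%, 10.6%, 19.2% and 22.4%) and 11 with the length trend removed (18.4%), and 2 to 16 with a tumor left out (7.34% to 20.5%). Other settings moved the counts less. Limma-voom, DESeq2 size factors and upper quartile scaling gave 10, 13 and 11 against non-responders (9.155%, 9.85% and 9.64% of all genes). Against controls they gave 6, 4 and 4 (13.7%, 13.35% and 13.05%). With the length trend removed 12 passed against non-responders (12.4%). Against non-responders the median log2 fold change was -0.077 and -0.078 on the TPM scales (large subunit -0.084 and -0.085, small -0.067 and -0.067) and -0.094 with 33R left out and the length trend removed (large -0.093, small -0.096). With a tumor left out it was -0.43 to -0.14 (large -0.43 to -0.15, small -0.42 to -0.13), and against controls -0.20 to -0.11. The median of non-responders against controls was -0.034 to 0.24 with a tumor left out, with the sign turned without 33R, and -0.016 with 33R left out and the length trend removed. None of the members passed in that comparison under any setting. Against non-responders Mrps18c turned to 0.021, 0.037, 0.037 and 0.10 and Mrps36 to 0.012, 0.032, 0.032 and 0.078, with the length trend removed, on the TPM scales with 1 and 0.1 added, and with 33R left out and the length trend removed. The cause was not tested. Of the named genes' values under other settings 477 kept direction and side of the threshold, 108 lost the threshold, 5 gained it and 8 turned.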
